A study of Mus musculus with 6 samples.

Results

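The 10 genes described here encode the ubiquitin-editing enzyme A20 with its adaptors and other brakes that act inside the cell on Toll-like receptor (TLR) signaling. They were chosen by symbol, as 10 of the 55335 rows of the count table: Tnfaip3, which encodes A20, Tnip1, Tnip2, Tnip3, Tax1bp1, Cyld, Irak3, Tollip, Bcl3 and Peli1. The study sequenced total RNA of bone marrow-derived macrophages (BMDMs) in 3 control libraries, from cells given PBS, and 3 LPS libraries, from cells given lipopolysaccharide (LPS), each after 1 h. Both groups came from C57BL/6 mice, marked WT (wild type) in the library names, with no further allele named. The study used male mice of 7 to 10 weeks, and the marrow cells had grown for 6 d in medium with 10% fetal bovine serum and 20% conditioned medium of L929 cells, which supplies macrophage growth factor. The LPS dose of these libraries was not given in the sources used here. The labels gave libraries of the same replicate number the same batch number, but did not say whether they came from separate animals, so the p-values measure the spread between these libraries, which may be technical.

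When LPS, a component of the outer wall of Gram-negative bacteria, engages TLR4, the adaptor MyD88 assembles IRAK kinases that activate the ubiquitin ligase TRAF6. Chains of ubiquitin, linked through lysine or head to tail, then serve as scaffolds for the kinases that release the transcription factor NF-kB. A20 edits and binds these chains, ABIN proteins and TAX1BP1 bring it to its substrates, and CYLD removes the chains. IRAK-M and TOLLIP act on the IRAK step, Pellino proteins ubiquitinate IRAK kinases, and BCL3 holds NF-kB dimers on DNA in the nucleus. A20 is known as a gene that NF-kB itself switches on in macrophages.

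The promoter sequences of the members with the largest changes are shown first, because 4 of these 5 members hold a match to the NF-kB consensus close to the start site. Each stretch runs from 150 bases before to 20 bases after the start site in RefSeq (build GRCm38.p6), 5′ to 3′ on the strand of the gene, with capitals marking matches to the NF-kB consensus on either strand. Tnfaip3 lies at chr10:19015391-19015560 on the minus strand, Tnip1 at chr11:54962921-54963090 on the minus strand, Tnip3 at chr6:65590248-65590417 on the plus strand, Bcl3 at chr7:19822736-19822905 on the minus strand and Peli1 at chr11:21091174-21091343 on the plus strand.
Tnfaip3: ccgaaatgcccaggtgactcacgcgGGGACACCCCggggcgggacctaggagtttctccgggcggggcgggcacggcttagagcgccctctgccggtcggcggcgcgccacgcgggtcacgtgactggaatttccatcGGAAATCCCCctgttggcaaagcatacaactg
Tnip1: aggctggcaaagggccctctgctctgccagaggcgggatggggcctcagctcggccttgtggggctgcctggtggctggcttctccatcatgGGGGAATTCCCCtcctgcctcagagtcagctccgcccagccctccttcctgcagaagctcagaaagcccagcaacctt
Tnip3: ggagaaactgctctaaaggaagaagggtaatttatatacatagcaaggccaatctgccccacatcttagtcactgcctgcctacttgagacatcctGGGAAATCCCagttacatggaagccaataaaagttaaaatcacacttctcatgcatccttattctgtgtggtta
Bcl3: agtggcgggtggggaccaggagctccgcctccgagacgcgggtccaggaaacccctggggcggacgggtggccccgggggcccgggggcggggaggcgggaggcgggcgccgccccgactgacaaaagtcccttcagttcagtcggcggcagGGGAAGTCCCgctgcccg
Peli1: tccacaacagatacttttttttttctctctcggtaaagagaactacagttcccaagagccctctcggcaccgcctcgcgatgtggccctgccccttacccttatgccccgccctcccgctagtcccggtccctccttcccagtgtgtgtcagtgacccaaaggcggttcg

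Counting the start site as base 1, the matches of Tnfaip3 covered bases -125 to -116 and -12 to -3, with none of the same consensus in the window of its other RefSeq start. Tnip1 held overlapping matches on both strands over bases -58 to -47, and Tnip3 held 1 stretch that matched on both strands, at bases -54 to -45. The RefSeq starts of Tnip3, Tnfaip3, Bcl3 and Peli1 lie inside the genes as GENCODE M21 draws them, not at their 5′ ends. That of Tnip1 lies outside. The matches of Tnfaip3 and Tnip3, though before the RefSeq start, thus lie within the annotated gene. The match of Bcl3 lay at bases 3 to 12, within the transcribed sequence. Peli1 held no match in its window.

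Each length-scaled level below is the CPM of a gene, its count relative to the size of the library, divided by the kilobases of its merged exons. Library sizes were scaled by the trimmed mean of M-values (TMM). In control cells Tnfaip3 had the lowest length-scaled level of the 10, at 5.40 ± 0.136 CPM per kb (SD, n = 3). After 1 h of LPS it had the highest, at 560.3 ± 5.07 CPM per kb (SD, n = 3), above Tnip3 at 118 ± 6.98 and Tnip1 at 95.5 ± 4.03. In bulk libraries, fewer cells of a type and less RNA per cell cannot be told apart. The change of order from a member at the bottom to one at the top held with library size alone as the scaling and with the longest transcript as the length.

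**Figure D1:**
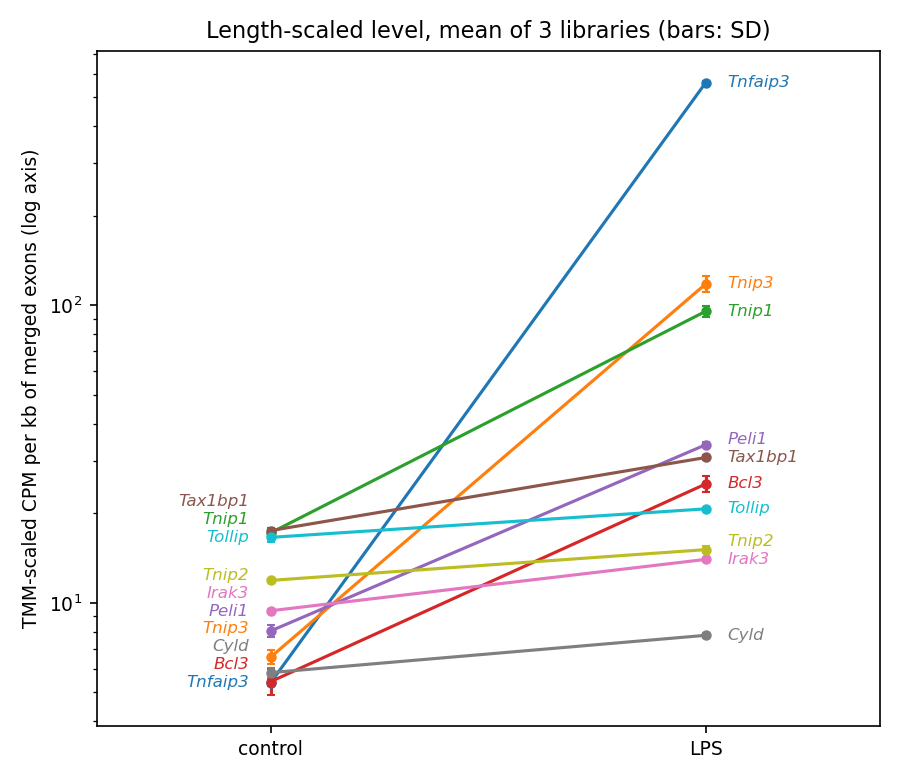
Length-scaled level of the 10 genes, as TMM-scaled CPM per kb of merged exons on a log axis, in control and LPS libraries; points are means of 3 libraries and bars are SD. Tnfaip3 moved from the lowest level, 5.40, to the highest, 560.3, while Cyld moved from 5.83 to 7.78.

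The control order was Tax1bp1 at 17.5, Tnip1 at 17.2, Tollip at 16.6, Tnip2 at 11.9, Irak3 at 9.41, Peli1 at 8.05, Tnip3 at 6.58, Cyld at 5.83, Bcl3 at 5.44 and Tnfaip3 at 5.40 CPM per kb. The libraries of Tnip1 overlapped those of both Tax1bp1 and Tollip, and the libraries of Bcl3 overlapped those of both Cyld and Tnfaip3. With merged exons as the length, these neighbors thus did not differ beyond their spread. Tax1bp1 (17.3 to 17.9) and Tollip (16.0 to 17.1) did not overlap each other, nor did Cyld (5.70 to 6.08) and Tnfaip3 (5.25 to 5.50). In LPS cells the order was Tnfaip3, Tnip3, Tnip1, Peli1 at 34.0, Tax1bp1 at 30.8, Bcl3 at 25.1, Tollip at 20.7, Tnip2 at 15.1, Irak3 at 14.0 and Cyld at 7.78 CPM per kb, and no neighbors overlapped. With the longest transcript as the length, Tax1bp1 stood above Peli1 in LPS cells, at 72.3 against 60.1 CPM per kb. In control cells that length set Tax1bp1 at 41.2, Tollip at 22.1 and Tnip1 at 20.5, with no overlap. It also set Cyld at 9.14, Bcl3 at 7.28 and Tnfaip3 at 6.30 in control cells, again with no overlap. Tnip3, at 15.5, then stood above Irak3, at 11.2. Both orders depend on the lengths given to each gene, since the transcripts in use were not measured.

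All 10 genes passed the filter on low counts. Of them, 5 rose past both criteria, a log2 fold change over 1 at an adjusted p below 0.05, beside 10.5% of the 15687 genes tested (edgeR, quasi-likelihood, with Benjamini-Hochberg adjustment over all of them). These were Tnfaip3, Tnip1, Tnip3, Bcl3 and Peli1, and none of the 10 fell, beside 10.4% of all genes tested. None was lower by an unadjusted p under 0.05 in edgeR, or by the adjusted p in DESeq2 or limma voom. By the adjusted p alone, 10 of 10 were higher in LPS, beside 32.9% of all genes tested. The groups did not overlap in 10 of 10 members, each with its LPS libraries higher, as in 33.9% of all genes tested. The median log2 fold change was 1.45 over the members and -0.01 over all genes tested. With library size alone as the scaling, which moved the median of all genes tested to -0.42, 7 members were higher and 1, Tollip, was lower at an adjusted p under 0.05, while the same count of 5 rose past both criteria.

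**Figure D2:**
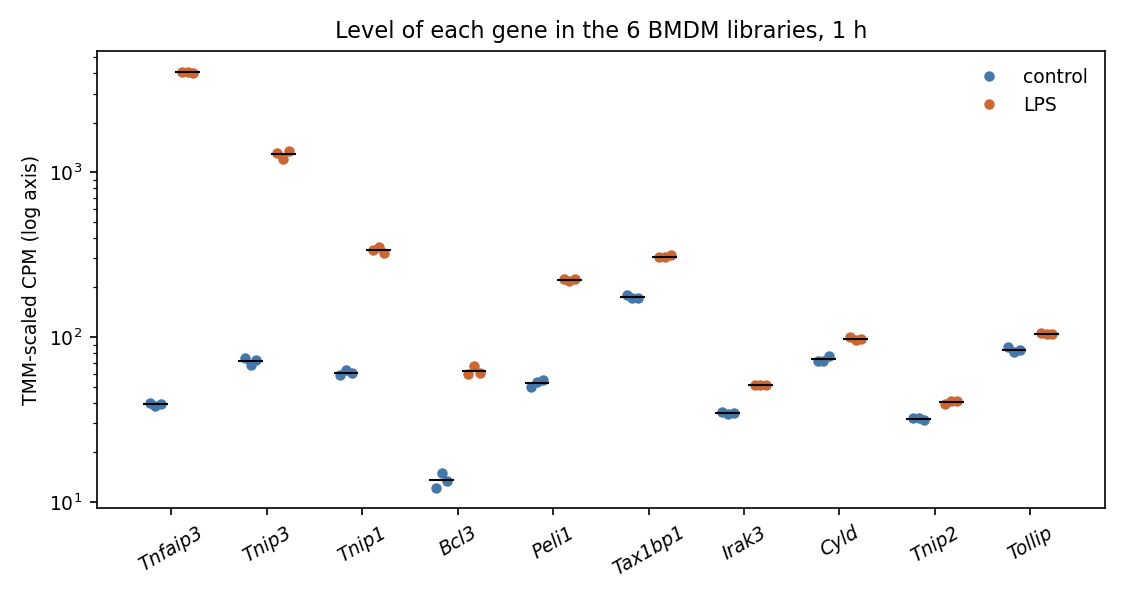
TMM-scaled CPM of each gene in each of the 6 libraries on a log axis, with points for libraries and bars for the mean of each group. The LPS libraries sat above the control libraries for each of the 10 genes, from Tnfaip3 at 39.1 against 4049 to Tollip at 83.7 against 105 CPM.

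Tnfaip3 (ENSMUSG00000019850.11, chr10:19000910-19015657, minus strand, GRCm38) encodes A20, which removes lysine-linked ubiquitin chains, adds chains that mark proteins for destruction and binds head-to-tail chains. Its counts in control libraries 1 to 3 were 1894, 1714 and 1820, and in LPS libraries 1 to 3 they were 135990, 133277 and 136489. On the scaled level this was 39.8, 37.9 and 39.4 CPM against 4052, 4083 and 4010.4 CPM. The LPS libraries lay close together and far above every control library. The ratio of the group means was 104, and the log2 fold change was 6.70 (SE 0.04, adjusted p = 7.7e-25 by edgeR). By mean CPM, Tnfaip3 went from rank 4126 among the genes tested in control cells to rank 23 in LPS cells, and its fold change stood at rank 95. Within batches 1 to 3 the log2 ratios were 6.67, 6.75 and 6.67.

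Kdm6b, which encodes a histone demethylase, and Tnf, the cytokine, were among the genes whose profile over the 6 libraries was most like that of Tnfaip3. They were found by Euclidean distance of log2 CPM, each profile centered on its own mean, among the 12136 genes that averaged 50 counts or more. The distances were 0.213 for Kdm6b and 0.218 for Tnf. Likeness over 6 libraries of 2 groups mostly ranks genes by how close their fold change is. Tnf was counted 1007, 935 and 872 times in control cells and 78981, 75054 and 76710 times in LPS cells, a log2 fold change of 6.83 (SE 0.05, adjusted p = 4.99e-24 by edgeR). Per kilobase, the ratio of Tnfaip3 to Tnf ran from 0.416 to 0.473 in control libraries and from 0.391 to 0.404 in LPS libraries.

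The ABIN adaptors differed in how far they moved. Tnip3 (ENSMUSG00000044162.12, chr6:65525313-65634040, plus strand), which encodes ABIN-3, was counted 3566, 3057 and 3364 times in the control libraries and 44144, 39421 and 46120 times after LPS. In CPM this was 74.9, 67.7 and 72.9 against 1315, 1208 and 1355, and the groups were far apart. Its log2 fold change was 4.17 (SE 0.05, adjusted p = 2.38e-21 by edgeR), an 18.0-fold ratio of the group means. Among all genes tested its mean CPM went from rank 2458 to rank 99.

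Tnip1 (ENSMUSG00000020400.17, chr11:54910785-54962917, minus strand) encodes ABIN-1, the ubiquitin-binding adaptor that joins A20 to the IKK regulator NEMO. Its levels were 58.9, 63.3 and 60.3 CPM in control and 337, 353 and 324 CPM in LPS libraries. The LPS libraries were all higher, with a log2 fold change of 2.47 (SE 0.04, adjusted p = 1.72e-19 by edgeR). Tnip2 (ENSMUSG00000059866.13, chr5:34496087-34513991, minus strand) encodes ABIN-2, which also stabilizes the kinase TPL2. Its counts were 1529, 1451 and 1445 without LPS and 1317, 1343 and 1393 with it. In CPM the order was the other way, 32.1, 32.1 and 31.3 in control against 39.2, 41.1 and 40.9 in LPS. Its log2 fold change was 0.34 (SE 0.04, adjusted p = 1.32e-06 by edgeR), but -0.06 (adjusted p = 0.199) with library size alone, so its direction rests on the scaling.

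Tax1bp1 (ENSMUSG00000004535.12, chr6:52713729-52766780, plus strand) encodes an adaptor that brings A20 to TRAF6 and RIPK1 and also serves in selective autophagy. It had the highest counts of the members in control cells, 8514, 7823 and 7967, against 10187, 9922 and 10703 in LPS cells. The levels were 179, 173 and 173 CPM against 304, 304 and 314 CPM, with no overlap. The log2 fold change was 0.81 (SE 0.03, adjusted p = 1.56e-13 by edgeR), under the fold criterion, and 0.41 (adjusted p = 3.29e-09) with library size alone.

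The shares of the 4 adaptors in their length-scaled sum, which do not depend on the scaling between libraries, moved with these changes. Tnip3 made up 11.6% to 12.9% of the sum in control libraries and 43.2% to 47.3% in LPS libraries. Tnip2 went the other way, from 22.1% to 22.4% down to 5.61% to 5.99%, and Tax1bp1 from 32.5% to 33.5% down to 11.7% to 12.0%. Tnip1 held 31.2% to 33.5% in control and 34.9% to 38.9% in LPS libraries. Among the ABIN adaptors alone, the mean share of Tnip3 was 18.5% in control and 51.7% in LPS, with Tnip1 at 48.2% and 41.7% and Tnip2 at 33.3% and 6.58%. With the longest transcript as the length, Tnip3 held 16.7% of the 4 in control and 57.5% in LPS cells.

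**Figure D3:**
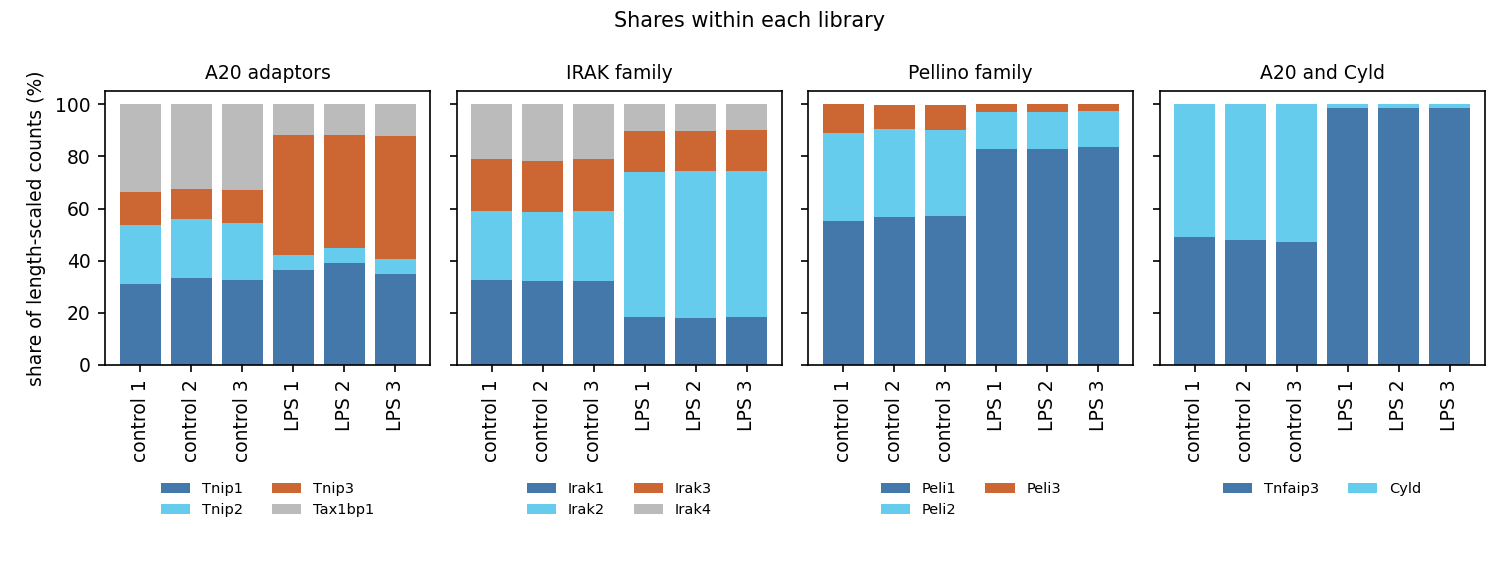
Share of each gene in the length-scaled counts of its group (percent, stacked to 100%) in each of the 6 libraries, for the A20 adaptors, the IRAK family, the Pellino family, and A20 with Cyld. With merged exons as the length, Tnfaip3 took 47.3% to 49.1% of the pair with Cyld in control libraries and 98.6% to 98.7% in LPS libraries.

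Cyld (ENSMUSG00000036712.15, chr8:88697028-88751945, plus strand) encodes the other deubiquitinase of the set, which trims lysine-linked and head-to-tail chains. Control cells gave 3412, 3245 and 3528 counts, and LPS cells 3347, 3149 and 3311. Scaled, these were 71.7, 71.8 and 76.5 CPM against 99.7, 96.5 and 97.3 CPM. The log2 fold change was 0.42 (SE 0.04, adjusted p = 1.53e-08 by edgeR), but 0.01 (adjusted p = 0.782) with library size alone. Per kilobase of merged exons, Tnfaip3 and Cyld stood near each other in control libraries, with a ratio of 0.898 to 0.966. With the longest transcript as the length they stood less near, Tnfaip3 holding 40.0% to 41.8% of the pair in control libraries and Cyld 58.2% to 60.0%. By merged exons they stood far apart in LPS libraries, with a ratio of 70.7 to 73.7. The ratio of Tnfaip3 to Tnip1 went from 0.294 to 0.331 in control up to 5.67 to 6.06 in LPS, and that of Tnfaip3 to Tax1bp1 from 0.303 to 0.316 up to 17.6 to 18.6. Of the length-scaled sum of all 10 members, Tnfaip3 held 5.21% ± 0.128 in control and 60.8% ± 0.379 in LPS libraries (SD, n = 3).

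Irak3 (ENSMUSG00000020227.10, chr10:120141648-120202130, minus strand) encodes IRAK-M, an IRAK family member without effective kinase activity that restrains the family in monocytes and macrophages. Counts of 1667, 1538 and 1602 in control libraries stood against 1729, 1670 and 1746 after LPS. Its levels were 35.0, 34.0 and 34.7 CPM in control and 51.5, 51.2 and 51.3 CPM in LPS. The groups did not overlap, and the log2 fold change was 0.57 (SE 0.04, adjusted p = 5.09e-10 by edgeR), or 0.16 (adjusted p = 0.00103) with library size alone. Irak2, the kinase of the family that sustains late TLR signaling, had a log2 fold change of 2.00 (SE 0.03, adjusted p = 3.27e-19 by edgeR). Within the IRAK family, the share of Irak3 in the length-scaled sum was 19.4% to 20.1% in control and 15.2% to 15.9% in LPS libraries, while that of Irak2 was 26.4% to 26.8% and 55.7% to 56.6%.

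The Tmbim4 gene, on the opposite strand, shares 192 bases of exon with Irak3, which is 5.223% of the exon length of Irak3. The counts of Tmbim4 were 2008, 1898 and 1813 without LPS and 1663, 1555 and 1680 with it. The log2 fold change was 0.25 (SE 0.04, adjusted p = 5.83e-05 by edgeR), and -0.16 (adjusted p = 0.00295) with library size alone. The kit marks strand, but the strand setting of the counting was not given in the sources used here, so the part of Tmbim4 reads in the Irak3 count was not tested.

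Tollip (ENSMUSG00000025139.14, chr7:141874813-141918507, minus strand) encodes a ubiquitin-binding adaptor that holds IRAK kinases at the receptor in resting cells. Reads numbered 4128, 3652 and 3862 in the control libraries and 3542, 3440 and 3529 after LPS. In CPM the levels were 86.7, 80.8 and 83.7 against 106, 105 and 104. This was the smallest log2 fold change of the 10, at 0.32 (SE 0.04, adjusted p = 2.76e-07 by edgeR), and it was -0.08 (adjusted p = 0.0449) with library size alone, on the other side of 0. Relative to the median of all genes tested, which removes the shift between scalings, Tollip lay 0.31 to 0.36 higher on the log2 scale over the fits, Tnip2 0.34 to 0.39, Cyld 0.41 to 0.46, Irak3 0.57 to 0.59 and Tax1bp1 0.81 to 0.84. A scaling moves a gene and this median alike, so the likeness across scalings is built in and does not test the direction. The comparison takes the median gene as unchanged, which was not tested.

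**Figure D4:**
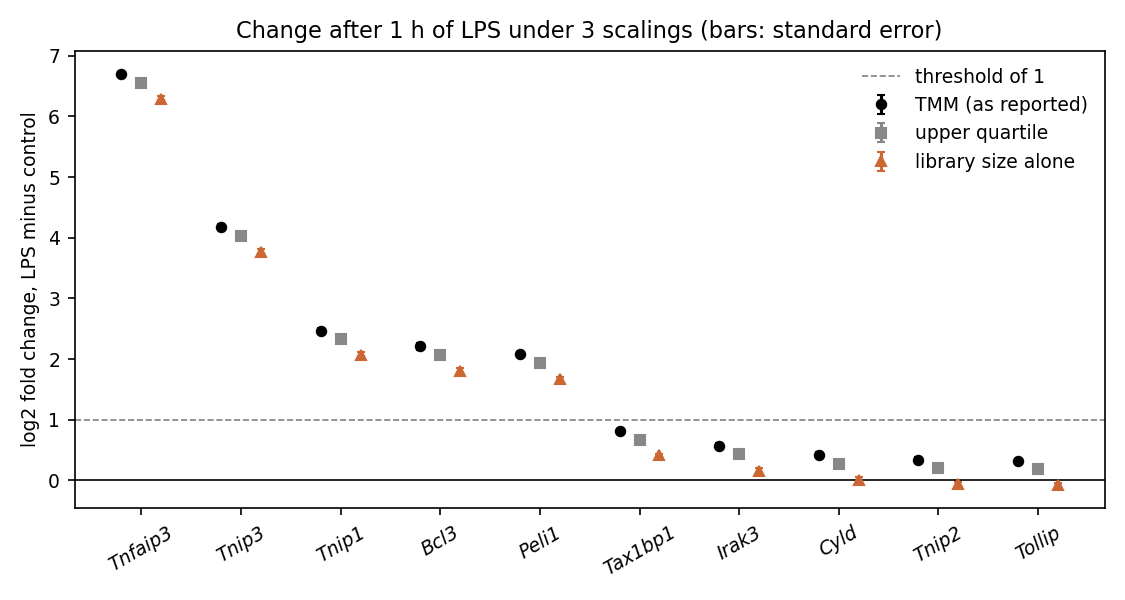
Log2 fold change of each gene, LPS minus control, under TMM, upper quartile scaling and library size alone, with bars for the standard error (mostly smaller than the symbols) and a dashed line at the threshold of 1. The same 5 genes lie above 1 under each scaling, from Tnfaip3 at 6.29 to 6.70 down to Peli1 at 1.67 to 2.08, while Tnip2 and Tollip cross 0.

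Bcl3 (ENSMUSG00000053175.17, chr7:19808462-19822770, minus strand) encodes an IkB family protein of the nucleus that binds the NF-kB subunits made from Nfkb1 and Nfkb2. It had the fewest counts of the members in control cells, 581, 671 and 616, and 2003, 2168 and 2051 after LPS. The levels were 12.2, 14.9 and 13.4 CPM in control and 59.7, 66.4 and 60.3 CPM in LPS, with no overlap. The log2 fold change was 2.21 (SE 0.06, adjusted p = 8.58e-16 by edgeR), a 4.61-fold ratio of the group means. Gm16174, an antisense gene that lies within Bcl3 and shares no exon base with it, was counted 31, 30 and 37 times in control cells and 56, 46 and 53 times in LPS cells. Its log2 fold change was 1.13 (SE 0.19, adjusted p = 5.25e-05 by edgeR), and it fell under the fold criterion at 0.73 when libraries were scaled by size alone and at 0.99 under upper quartile scaling.

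Peli1 (ENSMUSG00000020134.13, chr11:21091291-21150323, plus strand) encodes a Pellino ubiquitin ligase, which acts on IRAK kinases and other proteins of the pathway and for which both braking and promoting roles have been described. It was counted 2379, 2422 and 2527 times in control cells and 7534, 7101 and 7691 times in LPS cells. The levels were 52.8 ± 2.51 CPM and 223 ± 4.49 CPM (SD, n = 3), and every LPS library was higher. The log2 fold change was 2.08 (SE 0.04, adjusted p = 1.3e-18 by edgeR), a 4.22-fold ratio. Its share of the length-scaled sum of the Pellino family was 55.1% to 57.0% in control and 83.0% to 83.5% in LPS libraries, while Peli2 went from 33.3% to 34.0% down to 13.9% to 14.2%. Peli2 itself had a log2 fold change of 0.25 (adjusted p = 1.88e-05), which turned to -0.15 (adjusted p = 0.00213) with library size alone, and Peli3 of -0.33 (adjusted p = 0.00336), both under the fold criterion.

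The processed pseudogene 2610024D14Rik lies within Peli1 on the same strand and shares no exon base with it. Its counts were 52, 55 and 78 without LPS and 386, 349 and 440 with it, and it rose by a log2 fold change of 3.13 (SE 0.13, adjusted p = 2.97e-13 by edgeR). Total RNA holds unspliced transcripts, and how many of these reads came from introns of Peli1 was not tested. Of the 10 annotated genes that overlap a member, the other 7 had too few counts to be tested. Among them Gm16175 shares 161 bases (6.505%) of the Bcl3 exons and held at most 2 counts in a library.

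The genes around the members were read from 6 lists, which share some genes. Of 65 listed genes, counted once, 63 were tested, 22 rose past both criteria and 3 fell, with a median log2 fold change of 0.33. Over all genes tested, 10.5% rose and 10.4% fell past both criteria, and by the adjusted p alone 32.9% were higher and 34.9% lower. These shares stand beside the counts of each list below. Among 6 partners and substrates of A20, 2 rose and none fell past both criteria, while 2 were lower by the adjusted p alone. The 2 that rose were Birc3, at 2.66 (SE 0.04, adjusted p = 8.66e-21 by edgeR), and Birc2, at 1.28 (SE 0.04, adjusted p = 1.65e-14), both ubiquitin ligases of the TNF receptor complex. Birc2 was at 0.87, under the fold criterion, with library size alone. The list's median was 0.38, with Ripk1, a kinase that A20 edits, at -0.62, or at -1.02 and past both criteria with library size alone.

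Among 9 genes that build or remove head-to-tail chains, 1 rose and none fell past both criteria, beside 10.5% and 10.4% of all genes tested. By the adjusted p alone 4 were lower, and the median log2 fold change was 0.00. The gene that rose was Spata2, which links CYLD to the chain-building complex, at 1.04 (SE 0.06, adjusted p = 1.41e-11 by edgeR). It missed the fold criterion at 0.64 when libraries were scaled by size alone, at 0.90 under upper quartile scaling, and without control replicate 1 or LPS replicate 3, with 0.99 as the lowest value on leaving out a library.

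Of 19 genes of the receptor-proximal TLR4 pathway, 3 rose and 2 fell, beside 10.5% and 10.4% of all genes tested. The list's median was 0.24. Cd14, the co-receptor that hands LPS to TLR4, rose by a log2 fold change of 3.19 (SE 0.03, adjusted p = 4.12e-22 by edgeR), from 398 ± 7.53 to 3623 ± 45.5 CPM (SD, n = 3). The other two that rose were Irak2, given above, and Traf3, an adaptor of the TRIF branch, at 1.05 (SE 0.04, adjusted p = 1.23e-13), which was at 0.65 by library size and 0.91 by upper quartile. Tab1, a partner of the kinase TAK1, fell by 1.41 (SE 0.07, adjusted p = 6.01e-12) and Tirap, the adaptor that brings MyD88 to the membrane, fell by 1.04 (SE 0.06, adjusted p = 5.58e-11) on the log2 scale. Tlr4 itself was at -0.75 (SE 0.04, adjusted p = 1.9e-11 by edgeR), under the fold criterion, which it passed at -1.15 with library size alone.

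Of 20 genes listed here as other brakes on TLR and NF-kB signaling, 11 rose and 1 fell, with a median log2 fold change of 3.11. Whether each of them acts as a brake in these cells was not tested. The largest rises were in Socs3, a suppressor of cytokine signaling, at 7.49 (SE 0.06, adjusted p = 5.45e-24 by edgeR), Dusp1, a phosphatase of MAP kinases, at 6.51 (SE 0.05, adjusted p = 4.99e-24), and Nfkbiz, a nuclear IkB like Bcl3, at 5.57 (SE 0.04, adjusted p = 2.69e-24). Tnfaip3, at 6.70, had a value between those of Socs3 and Dusp1. Tnfaip8l2, which encodes the brake TIPE2, fell by 1.44 on the log2 scale (SE 0.04, adjusted p = 1.47e-16), from 129 ± 3.34 to 47.3 ± 0.731 CPM (SD, n = 3).

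Of 16 paralogs of the members, 14 were tested, 8 rose and none fell past both criteria, while 3 were lower by the adjusted p alone, with a median of 2.25. Beside Nfkbiz, those that rose included Nfkbia, the main cytoplasmic IkB, at 4.79 (SE 0.05, adjusted p = 2.57e-22 by edgeR), and Nfkbie, at 4.35 (SE 0.05, adjusted p = 3.78e-22). The other 2, Otud7a and Calcoco2, a relative each of Tnfaip3 and Tax1bp1, had 0 counts in all 6 libraries, where 3 counts would be 0.063 to 0.0919 CPM. All 5 NF-kB subunits rose, with a median of 2.50. Rel was at 4.13 (SE 0.04, adjusted p = 1.36e-22 by edgeR), and the subunits bound by BCL3 were Nfkb1 at 2.67 (SE 0.04, adjusted p = 2.06e-20) and Nfkb2 at 2.50 (SE 0.04, adjusted p = 5.42e-20). Rela, at 1.06, missed the fold criterion at 0.66 by library size and 0.92 by upper quartile. By the adjusted p alone, 39 of the 63 tested genes of these lists were higher in LPS, beside 32.9% of all genes tested. Lower in LPS were 18, beside 34.9%. These counts and the list medians depend on the scaling, since library size alone moved the median of all genes tested to -0.42. With library size alone, Irak1, Chuk and Cd180 were among those that turned lower, at -0.32, -0.2 and -0.28.

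The promoter windows of all 10 members were found in RefSeq, 13 windows among 32851, each from 250 bases before to 50 bases after a start site. The degenerate NF-kB consensus matched on either strand in 6 of the 13 windows and in 4.51% of all windows, and by gene in 6 of 10 members and in 5.14% of all genes with a window. The members with a match were Tnfaip3, Tnip1, Tnip3 and Bcl3, which is 4 of the 5 that rose past both criteria, and Cyld and Tax1bp1, which is 2 of the other 5. The match of Cyld was at bases -155 to -146, and that of Tax1bp1 at bases 35 to 44 of the second start. Over all tested genes with a window, 112 of 927 that rose held a match (12.1%), as did 36 of 874 that fell (4.12%) and 487 of 8355 that did neither (5.83%). These shares are descriptions without a test, and a match is not a bound site.

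The AP-1 motif TGANTCA matched in 7.81% of all windows and in 1 member, Tnfaip3, at bases -136 to -130, next to the farther NF-kB match. The CRE motif TGACGTCA matched in 1.79% of all windows and in no member's window. The TATA motif TATAAA matched in 13.6% of all windows and in the windows of Tnfaip3 and Tnip3. These matches lay at bases -225 to -220 of Tnfaip3 and, on the strand opposite to the gene, at bases -120 to -115 of Tnip3. The motifs did not overlap one another in the members' windows.

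**Figure D5:**
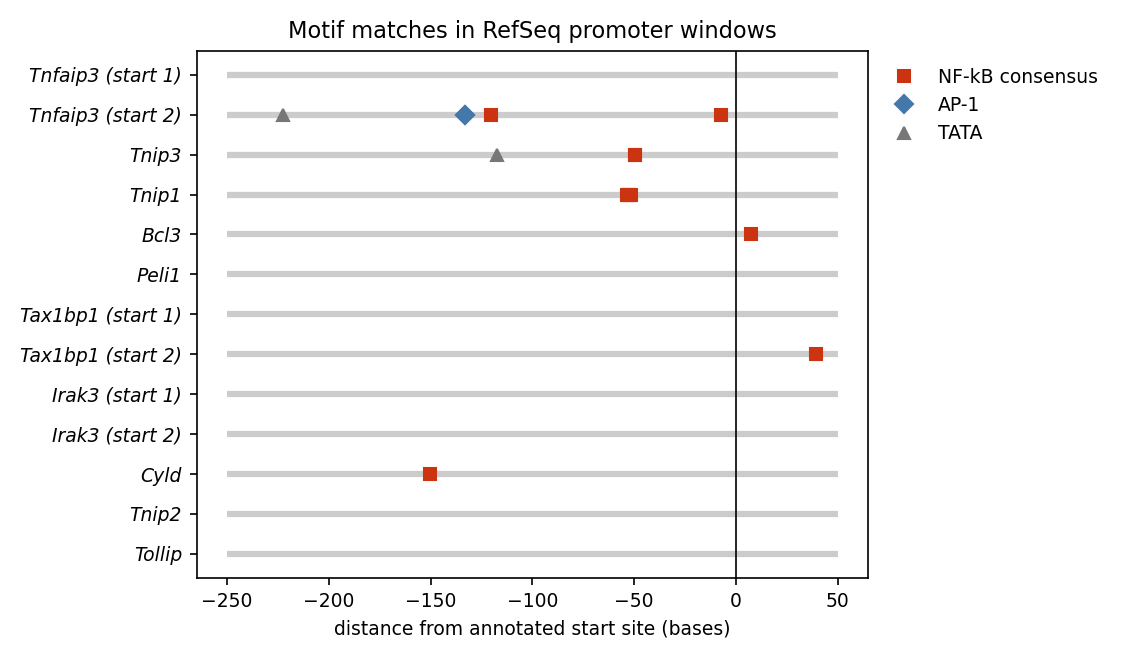
Positions of motif matches in the 13 RefSeq promoter windows of the 10 genes, with the distance from the annotated start site in bases on the x axis and one gray line per window, from 250 bases before to 50 after. NF-kB matches (red squares) lie in 6 windows, and the AP-1 match (blue diamond) in 1, that of Tnfaip3.

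The libraries held 37787611 to 41516330 counts each, so that every member stood on at least 581 counts in every library. All 8 macrophage markers were tested, with a summed level of 30329 to 31653 CPM in control and 33315 to 33711 CPM in LPS libraries. Markers of other cells summed to lower levels, and those of neutrophils, fibroblasts, dendritic cells, T cells and mast cells with basophils were higher in each LPS library than in any control library. All these sums rest on the TMM scaling, with factors averaging 1.15 in control and 0.869 in LPS libraries. They were not computed with library size alone, so the direction of the smaller differences may rest on the scaling. The 8 neutrophil markers, 7 of them tested, summed to 37.1 to 39.6 CPM in control and 49.5 to 51.7 in LPS. The 5 fibroblast markers, all tested, summed to 13.2 to 14.5 and 16.4 to 19.1 CPM, and the 5 dendritic cell markers, all tested, to 3.32 to 4.23 and 10.0 to 11.0 CPM. The 6 T cell markers, 2 of them tested, summed to 21.2 to 23.0 and 31.6 to 31.9 CPM, with Cd4 the highest. The 5 B cell markers, 2 of them tested, summed to 2.88 to 3.17 and 2.88 to 3.64 CPM, with overlap. The 5 mast cell and basophil markers, 2 of them tested, summed to 0.798 to 0.908 and 1.47 to 1.85 CPM, with Mcpt4 and Tpsb2 at 0. The 5 erythroid markers, none tested, summed to 0.065 to 0.266 and 0.118 to 0.298 CPM, also with overlap. The part of these cells in the members' values was not tested.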

How the data were processed

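Total RNA libraries of C57BL/6 BMDMs (3 control, 3 LPS, 1 h) were made with a stranded kit and sequenced as paired 101 bp reads. The authors aligned reads to GRCm38 with HISAT2 (2.1.0) after FastQC (0.11.9), converted and indexed the alignments with SAMtools (1.17) and counted them per gene with featureCounts (2.0.0). The deposited values are raw counts per gene. The annotation release, strand setting and rule for reads with several matches were not given in the sources used here. Gene symbols and exon lengths came from GENCODE M21, which matched 55154 of 55335 rows, and promoters from RefSeq.

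Genes with low counts were removed (edgeR filterByExpr), leaving 15687. Libraries were scaled by TMM (factors averaging 1.15 in control and 0.869 in LPS), and the comparison of LPS with control used the quasi-likelihood F-test of edgeR (4.0.16, in R 4.3.3) with Benjamini-Hochberg adjustment over all genes tested. Calls needed an absolute log2 fold change over 1 with an adjusted p below 0.05. The test was checked on simulated counts with as many genes set to rise as to fall, which does not check the choice of scaling. All 10 members were named, with up to 3 rises and 3 falls per pathway list, overlapping genes, Tnf, and the 3 genes closest to Tnfaip3, of which 1 is not reported here. The members and lists were chosen with earlier results of these data known. The alternatives were DESeq2 size factors and test (1.42.0), library size alone, upper quartile scaling, other filters, limma voom (3.58.1), a replicate block and leaving out each library. The labels pair the libraries by batch number. Deviations of same-numbered libraries correlated at -0.0139, 0.0822 and 0.0387, against a mean of -0.0178 for different numbers.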

Additional observations from a re-analysis of the deposited data

How the results depend on the processing

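Over 14 alternatives (scaling, filters, tests, the replicate block and leaving out each library), 138 of 140 log2 fold changes of the members kept their direction, and the same count of 5 members rose past both criteria in each. The exceptions came with library size alone, where Tnip2 was at -0.06 and Tollip at -0.08. Cyld, counted as keeping its direction, was at 0.01 there (adjusted p = 0.782 by edgeR). Most of the alternatives kept the TMM scaling. Genes outside the members that turned with library size alone included Tmbim4, at -0.16, Peli2, at -0.15, and Atf3, at -0.34, among others. With that scaling 1 member was lower in LPS at an adjusted p under 0.05 (0 otherwise), 6 pathway genes were lower past both criteria (3 otherwise) and 2964 of all tested genes were lower (1624 with TMM). Of the genes called, 29.0% rose, against 50.4% with TMM, and the median of all tested genes moved to -0.42, or to -0.16 with upper quartile scaling. Requiring 10 counts in every library left 13793 genes to test, with 1027 lower. Leaving out 1 library gave 1666 to 1764 rises and 1635 to 1711 falls. With the replicate block, which uses the batch pairing of the labels, 1652 genes rose and 1624 fell, 5 members rose past both criteria, and no call of a member changed. Precision is limited by 3 libraries per group and, for length-scaled levels, by the length chosen.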

Other observations

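Some further genes of the lists were chosen here after their values were seen. Il1rn, which encodes the secreted antagonist of the IL-1 receptor, had 21.7 ± 0.546 CPM in control and 758 ± 11.1 CPM in LPS libraries (SD, n = 3), a log2 fold change of 5.13 (SE 0.04, adjusted p = 6.55e-24 by edgeR). Atf3, a transcription factor counted among the brakes on TLR signaling, had 320.2 ± 7.88 CPM in control and 335 ± 2.3 CPM in LPS libraries (SD, n = 3), a log2 fold change of 0.07 (SE 0.03, adjusted p = 0.0742 by edgeR), or -0.34 (adjusted p = 3.02e-08) with library size alone. Rnf31, the catalytic subunit of the complex that builds head-to-tail ubiquitin chains, was lower in LPS by the adjusted p, at -0.73 (SE 0.04, adjusted p = 7.64e-11 by edgeR, and -1.13 with library size alone), and its partner Sharpin at -0.32 (adjusted p = 3.01e-05), while Rbck1, the third subunit, had 66.5 ± 2.98 against 66.3 ± 1.62 CPM (SD, n = 3, adjusted p = 0.935 by edgeR), or a log2 fold change of -0.41 (adjusted p = 5.28e-08) with library size alone.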
